A study of Mus musculus with 9 samples.

Results

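Plasminogen activation and the clade B serpins were followed here as a named set of 9 genes, of the 27179 genes in the deposited count table. Plau and Plat encode the plasminogen activators, Plaur encodes the receptor of the activator made by Plau, and Serpinb2, Serpinb10, Serpinb8, Serpinb1a, Serpinb6a and Serpinb9 encode serpins of clade B. RNA was sequenced from HPC7, a mouse line of blood progenitors kept in stem cell factor. The study asked how the transcription factor Snai1 changes these cells and whether its contact with the histone demethylase Lsd1 (Kdm1a) matters for that.

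The 9 libraries formed 3 groups of 3. In the mutant Snai1 group, the transduced cDNA had alanine in place of phenylalanine at residue 5, a change that impairs the contact with Lsd1. The wild-type Snai1 group received the unchanged cDNA, and the empty vector group received no cDNA. All groups carried the same MSCV-IRES-GFP retrovirus, grew in RPMI with 10% FCS, 0.05 mM 2-mercaptoethanol and 100 ng/ml stem cell factor, and were sorted for GFP 1 week after transduction. HPC7 is a single established line, the vector drives Snai1 well above its own level, and no label tells whether a replicate stands for its own transduction or culture. The p-values below thus reflect the spread among libraries alone, and that spread could be technical.

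Plasminogen is an inactive serine protease of plasma. Urokinase, the product of Plau, and tissue-type plasminogen activator, the product of Plat, cut it to plasmin, which breaks down fibrin and helps cells move through matrix. The urokinase receptor, the product of Plaur, holds urokinase on the surface of monocytes, macrophages and neutrophils. Serpins are suicide inhibitors: the protease cuts an exposed loop and stays trapped. Serpins of clade B mostly remain inside the cell, where many protect blood cells from their own granule proteases. Serpinb2, also called plasminogen activator inhibitor-2, inhibits both activators and is known for strong induction in activated macrophages.

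Total counts ran from 18332451 to 20860314 per library, so that 3 counts, used here as the limit that a count of 0 allows, stood for 0.144 to 0.164 counts-per-million (CPM). Below, CPM values are scaled by the trimmed mean of M values (TMM), which corrects library sizes for composition. Snai1 was at 460 ± 40.2 CPM in mutant Snai1 libraries, 492 ± 68.5 CPM in wild-type Snai1 libraries and 0.828 ± 0.205 CPM in empty vector libraries (SD, n = 3 each). The Snai1 level of both Snai1 groups overlapped (mutant over wild-type log2 fold change -0.10, SE 0.11, adjusted p = 0.479). Kdm1a was at 199 ± 2.00, 201 ± 7.55 and 200.5 ± 1.21 CPM in mutant Snai1, wild-type Snai1 and empty vector libraries. All 11 progenitor markers lay over 3 counts in each group, with a summed level of 8427 to 8736 CPM in mutant Snai1, 8398 to 10109 CPM in wild-type Snai1 and 8503 to 8775 CPM in empty vector libraries. The sums hide changes: of the 11, 2 were called higher and 5 lower with wild-type Snai1 over empty vector, and 4 higher and 3 lower with mutant over wild-type Snai1. Of all tested genes, 25.2% were called higher and 24.3% lower in the former comparison, and 23.4% higher and 24.5% lower in the latter. Wild-type Snai1 replicate 1 stood apart from the other wild-type libraries, and values without it are given below for several members.

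A set of 4 members shares a short sequence in front of an annotated start. The promoters of Serpinb2, Serpinb10 and Plaur are shown because these genes had the same order of wild-type libraries, with replicate 1 lowest. Serpinb8, the neighbour of Serpinb10, is shown too, although its replicate 1 was the highest wild-type library. A link between the sequence and that order was not tested. The sequences are RefSeq's on GRCm38.p6, from 250 bases before to 50 after an annotated transcript start, 5′ to 3′ on the plus strand. Capitals mark TGANTCA, a loose form of the AP-1 motif, a pattern that reads the same on both strands. N stands for any base, and it is A in Serpinb2 and Serpinb10, G in Serpinb8 and C in Plaur. The windows are chr1:107511173-107511472 for Serpinb2, chr1:107528753-107529052 for Serpinb10, chr1:107589756-107590055 for Serpinb8 and chr7:24462233-24462532 for Plaur.
Serpinb2: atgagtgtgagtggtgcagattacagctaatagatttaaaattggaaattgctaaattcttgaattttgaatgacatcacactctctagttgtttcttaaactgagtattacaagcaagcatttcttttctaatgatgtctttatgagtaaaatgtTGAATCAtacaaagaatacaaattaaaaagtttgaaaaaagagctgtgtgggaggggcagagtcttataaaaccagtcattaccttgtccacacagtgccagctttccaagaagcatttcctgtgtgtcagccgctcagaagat
Serpinb10: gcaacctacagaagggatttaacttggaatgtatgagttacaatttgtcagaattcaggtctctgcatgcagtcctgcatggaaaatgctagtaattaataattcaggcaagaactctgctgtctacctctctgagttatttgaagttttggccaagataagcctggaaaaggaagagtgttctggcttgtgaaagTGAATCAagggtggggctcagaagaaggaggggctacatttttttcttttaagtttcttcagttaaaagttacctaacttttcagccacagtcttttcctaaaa
Serpinb8: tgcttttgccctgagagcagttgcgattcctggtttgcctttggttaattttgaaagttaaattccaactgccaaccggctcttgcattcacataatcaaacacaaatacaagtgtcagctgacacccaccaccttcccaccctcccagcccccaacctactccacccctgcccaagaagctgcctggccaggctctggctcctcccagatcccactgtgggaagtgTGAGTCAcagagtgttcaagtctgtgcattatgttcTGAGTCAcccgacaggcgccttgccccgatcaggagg
Plaur: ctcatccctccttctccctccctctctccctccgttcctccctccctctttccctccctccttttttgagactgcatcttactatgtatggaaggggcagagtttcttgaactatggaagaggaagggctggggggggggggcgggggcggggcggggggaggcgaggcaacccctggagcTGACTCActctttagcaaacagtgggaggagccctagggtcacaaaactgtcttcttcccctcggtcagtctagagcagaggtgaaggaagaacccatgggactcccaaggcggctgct

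TGANTCA began 94 bases before the start in Serpinb2, 54 before it in Serpinb10, 69 before it in Plaur, and 23 before and 13 after it in Serpinb8. RefSeq gave 8 windows for 6 members, a pair each for Serpinb2 and Serpinb6a, and the motif was in 5 of the 8, which belong to these 4 genes. The windows of Serpinb2 overlap and share 1 match. Counted by window, it occurred in 7.81% of all 32851 promoter windows of the same length. CAGGTG, the E-box letters that Snai1 is known to bind (CACCTG on the other strand), occurred in 1 of the 8 windows, the second of Serpinb6a, 17 bases before the start, and in 20.2% of all windows. The motifs did not overlap in these windows. A match describes letters only.

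Testing used edgeR's quasi-likelihood fit of all 9 libraries on 12484 genes with enough counts, with Benjamini-Hochberg adjustment over all of them, and the threshold for a call was an adjusted p of 0.05. Plat did not reach the filter on low counts. Serpinb2, Serpinb10 and Plau reached it only through wild-type Snai1 libraries, so that their call follows in part from the filter, and no count is given over the 8 tested members. The 5 members counted in all groups were Plaur, Serpinb8, Serpinb1a, Serpinb6a and Serpinb9. With wild-type Snai1 over empty vector, 5 of these 5 were called higher, against 25.2% of all tested genes (49.4% were called in either direction), and with mutant Snai1 over wild-type Snai1, 5 of 5 were called lower, against 24.5% (47.9% in either direction). Libraries of these 5 did not overlap in either comparison. Of all tested genes, 28.1% lay wholly higher and 28.5% wholly lower with wild-type Snai1 than with empty vector, and 28.3% wholly higher and 27.5% wholly lower with mutant than with wild-type Snai1. With mutant Snai1 over empty vector, 0 of 5 were called in either direction, against 0.00801% of all tested genes, which was Snai1 alone, and 4.83% at an unadjusted p under 0.05. Comparisons that share a group are not independent of each other.

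**Figure D1:**
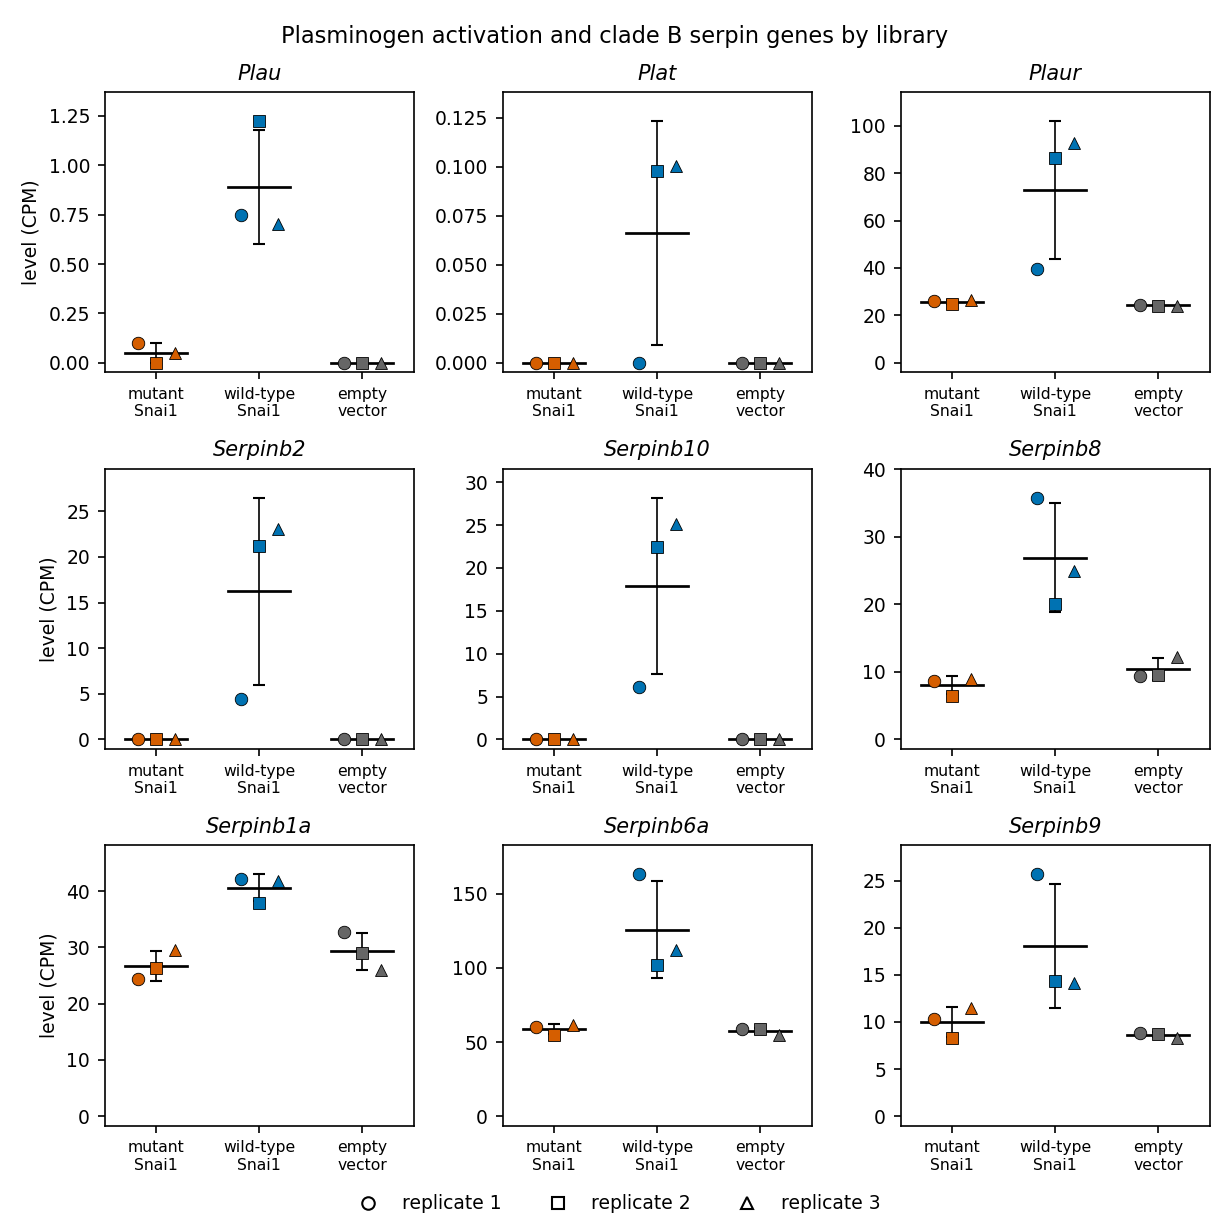
Level of each of the 9 genes in CPM (vertical axis, a scale of its own per gene) in mutant Snai1, wild-type Snai1 and empty vector libraries, with a symbol per replicate, the mean as a wide bar and the SD as an error bar (n = 3). The wild-type Snai1 points lie above the other groups in each panel but that of Plat, where wild-type replicate 1 is at 0.

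The activators themselves were scarce. Plau had 2, 0 and 1 counts in mutant Snai1 libraries, 15, 25 and 14 counts in wild-type Snai1 libraries and 0 counts in each empty vector library. Every wild-type library was above every other library, at a mean of 0.891 ± 0.289 CPM. Plau was at least 5.75-fold higher with wild-type Snai1 than the empty vector limit of 3 counts per library (edgeR adjusted p = 4.09e-04), and the ratio of mutant to wild-type Snai1 was 0.0567 (95% counting interval 0.0113 to 0.175, adjusted p = 0.00108). That ratio was 0.0283 without mutant replicate 1, which held 2 of the 3 counts, and 0.0857 without mutant replicate 2. Mutant Snai1 and empty vector were both under the limit, so no fold is given between them. Plat had 0 counts in each mutant Snai1 library, 0, 2 and 2 counts in wild-type Snai1 libraries and 0 counts in each empty vector library. No library passed the limit of 3 counts, so transcription of Plat was not detectable at this depth. Plasminogen itself (Plg), a liver product, had a total of 1, 2 and 0 counts in mutant Snai1, wild-type Snai1 and empty vector libraries.

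The urokinase receptor was well expressed in every group and higher with wild-type Snai1. Plaur was at 26.0, 24.8 and 26.4 CPM in mutant Snai1 libraries, 39.6, 86.4 and 92.8 CPM in wild-type Snai1 libraries and 24.5, 24.0 and 24.0 CPM in empty vector libraries. Wild-type Snai1 libraries stood above both other groups, and replicate 1 was the lowest of them. The log2 fold change was 1.59 (SE 0.27, adjusted p = 0.00125) for wild-type Snai1 over empty vector and -1.50 (SE 0.27, adjusted p = 0.00176) for mutant over wild-type Snai1. Mutant Snai1 over empty vector gave 0.09 (approximate 95% interval -0.45 to 0.63, adjusted p = 0.999), although the 3 mutant libraries lay just above the 3 empty vector libraries, as in 8.53% of all tested genes.

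Serpinb2 and Serpinb10 were close to undetected without wild-type Snai1. Serpinb2 had 2, 1 and 0 counts in mutant Snai1 libraries, 90, 433 and 460 counts in wild-type Snai1 libraries and 0 counts in each empty vector library. All wild-type libraries were above the rest, with replicate 1 far below its partners, at 4.48 CPM against 21.2 and 23.1 CPM. The bound against the empty vector limit, at least 105-fold, was at least 143-fold without wild-type replicate 1, 88.9-fold without replicate 2 and 82.8-fold without replicate 3. The ratio of mutant to wild-type Snai1 was 0.00311 (counting interval 6.41e-04 to 0.00913, adjusted p = 0.00123), and it was 0.00155 without mutant replicate 1 and 0.00465 without mutant replicate 3. In bulk RNA, fewer cells that transcribe a gene and less RNA per cell cannot be told apart.

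Serpinb10, or bomapin, is a nuclear clade B serpin known from blood progenitors and monocytic cells. It had 1, 0 and 0 counts in mutant Snai1 libraries, 123, 459 and 501 counts in wild-type Snai1 libraries and 2, 1 and 1 counts in empty vector libraries. The wild-type libraries were again far above the others, at 6.13, 22.5 and 25.1 CPM, with replicate 1 lowest. The ratio of summed counts of wild-type Snai1 to empty vector was 261 (counting interval 102 to 959), and the fitted log2 value was 7.90 (SE 0.81, adjusted p = 5.42e-05). Mutant over wild-type Snai1 gave a ratio of 9.42e-04 (counting interval 2.38e-05 to 0.00526, adjusted p = 4.82e-05). Without mutant replicate 1, which held the single count, Serpinb10 was at least 118-fold lower with mutant Snai1, and the ratio was 0.00142 without mutant replicate 2. Serpinb10 lies next to Serpinb2 on the same strand, and 2.88% of the 50-base runs of its transcript are shared with a Serpinb2 transcript in GENCODE, so a part of its reads is uncertain.

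Serpinb8, which in human inhibits furin, was counted in all groups. It was at 8.61, 6.49 and 8.94 CPM in mutant Snai1 libraries, 35.8, 20.1 and 24.9 CPM in wild-type Snai1 libraries and 9.47, 9.49 and 12.3 CPM in empty vector libraries. The wild-type libraries stood above both other groups, here with replicate 1 the highest. The log2 fold change was 1.37 (SE 0.21, adjusted p = 5.32e-04) for wild-type Snai1 over empty vector and -1.75 (SE 0.22, adjusted p = 1.37e-04) for mutant over wild-type Snai1. Serpinb8 had 3 mutant libraries below the 3 empty vector libraries, as did 9.04% of all tested genes, with a log2 fold change of -0.38 (approximate 95% interval -0.82 to 0.07, adjusted p = 0.994).

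Serpinb1a, Serpinb6a and Serpinb9, inhibitors of the granule proteases of neutrophils, mast cells and cytotoxic cells, were all called higher with wild-type Snai1, by different amounts. Serpinb1a, which inhibits neutrophil elastase, cathepsin G and proteinase 3, was at 24.3, 26.3 and 29.5 CPM in mutant Snai1 libraries, 42.2, 37.8 and 41.7 CPM in wild-type Snai1 libraries and 32.8, 29.0 and 26.0 CPM in empty vector libraries. Wild-type libraries were highest without overlap, and mutant Snai1 and empty vector overlapped. Its log2 fold change was 0.47 (SE 0.10, adjusted p = 0.00318) for wild-type Snai1 over empty vector and -0.60 (SE 0.10, adjusted p = 7.44e-04) for mutant over wild-type Snai1. Of its 50-base runs, 3.42% are shared with other genes, mainly Serpinb1b and Serpinb1c.

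Serpinb6a, known as an inhibitor of cathepsin G, was at 60.1, 54.9 and 61.3 CPM in mutant Snai1 libraries, 163, 102 and 112 CPM in wild-type Snai1 libraries and 58.5, 59.0 and 54.8 CPM in empty vector libraries. The mutant and empty vector libraries were intermixed, and the wild-type libraries lay above them, with replicate 1 the highest. The log2 fold change was 1.13 (SE 0.15, adjusted p = 2.09e-04) for wild-type Snai1 over empty vector and -1.10 (SE 0.15, adjusted p = 2.62e-04) for mutant over wild-type Snai1. Serpinb6a overlaps Nqo2, Ripk1 and the antisense 1110046J04Rik, and 20.7% of its 50-base runs are shared with other transcripts, mostly that antisense gene. Whether counting used strand was not given in the sources used here, so these reads cannot be told apart. 1110046J04Rik itself had a total of 20, 48 and 15 counts in mutant Snai1, wild-type Snai1 and empty vector libraries, against 3480, 7587 and 3348 counts for Serpinb6a.

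Serpinb9, which inhibits granzyme B, was at 10.3, 8.28 and 11.4 CPM in mutant Snai1 libraries, 25.7, 14.4 and 14.1 CPM in wild-type Snai1 libraries and 8.83, 8.77 and 8.32 CPM in empty vector libraries. Wild-type libraries were above the others, though replicates 2 and 3 only by a small step over mutant replicate 3. The log2 fold change was 1.06 (SE 0.23, adjusted p = 0.00337) for wild-type Snai1 over empty vector and -0.85 (SE 0.22, adjusted p = 0.0107) for mutant over wild-type Snai1. With mutant Snai1 over empty vector, Serpinb1a, Serpinb6a and Serpinb9 gave -0.13, 0.03 and 0.21 (approximate 95% intervals -0.34 to 0.07, -0.26 to 0.33 and -0.24 to 0.67). Their adjusted p-values were 0.998, 0.999 and 0.998, which does not show that the groups are alike.

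**Figure D2:**
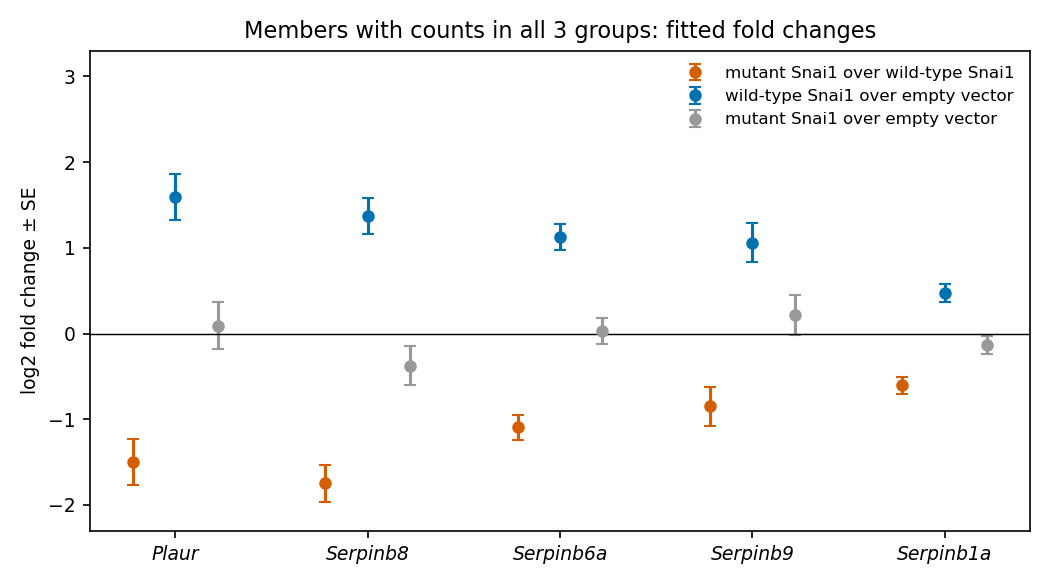
Fitted log2 fold change with its SE (vertical axis) for the 5 genes counted in all 3 groups, for mutant Snai1 over wild-type Snai1, wild-type Snai1 over empty vector and mutant Snai1 over empty vector. The first comparison runs from -1.75 to -0.60, the second from 0.47 to 1.59, and the third from -0.38 to 0.21.

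Levels between genes can be set beside each other only per length. Per kilobase of exon, the wild-type Snai1 order was Serpinb6a (66.5 ± 17.3 CPM per kb), Plaur (52.2 ± 20.8), Serpinb1a (21.2 ± 1.25), Serpinb8 (8.19 ± 2.45), Serpinb2 (7.94 ± 5.00), Serpinb9 (5.31 ± 1.94), Serpinb10 (5.13 ± 2.95) and Plau (0.380 ± 0.123). Serpinb6a and Plaur did not differ beyond their spread, nor did neighbours among the 4 genes from Serpinb8 to Serpinb10 in that order. In mutant Snai1 libraries, Serpinb6a, Plaur and Serpinb1a led at 31.1 ± 1.79, 18.4 ± 0.613 and 13.9 ± 1.36 CPM per kb. In empty vector libraries the same genes led at 30.4 ± 1.21, 17.3 ± 0.210 and 15.3 ± 1.76 CPM per kb, where Plaur and Serpinb1a lay about as far apart as the SD of Serpinb1a.

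Wild-type Snai1 replicate 1 split the members into groups of its own. Its level over the mean of replicates 2 and 3 was 0.203 for Serpinb2, 0.257 for Serpinb10 and 0.442 for Plaur. It was 1.52 for Serpinb6a, 1.59 for Serpinb8 and 1.80 for Serpinb9, while Serpinb1a was at 1.06 and Plau at 0.776. Over 11237 genes with at least 1 CPM in all wild-type libraries, the median ratio was 1.01, and the 5th to 95th percentiles ran from 0.617 to 1.51. Serpinb2, Serpinb10 and Plaur thus lay under that range, and Serpinb6a, Serpinb8 and Serpinb9 over it. Without this library, wild-type Snai1 over empty vector gave log2 fold changes of 1.89 for Plaur, 1.11 for Serpinb8, 0.90 for Serpinb6a and 0.72 for Serpinb9, all still called. Mutant over wild-type Snai1 then gave -1.80 for Plaur, -1.49 for Serpinb8, -0.86 for Serpinb6a and -0.51 for Serpinb9, also still called. The fitted value of Serpinb10 for wild-type Snai1 over empty vector was 8.31 without this library, against 7.90 with it.

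**Figure D3:**
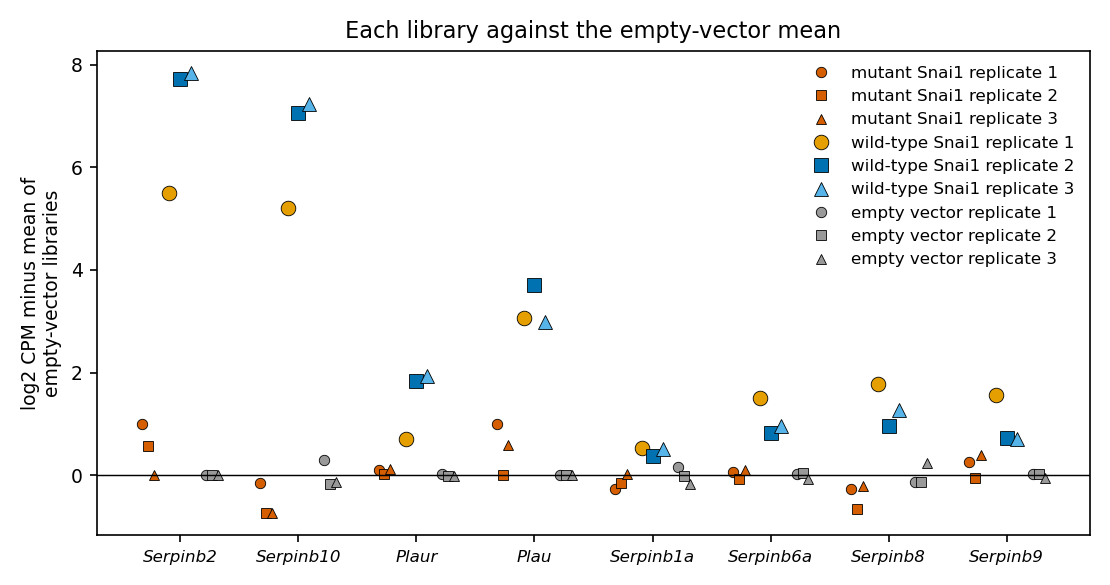
Log2 CPM (prior count 2) of each library minus the mean of the empty vector libraries (vertical axis) for the 8 tested genes, with mutant Snai1, wild-type Snai1 and empty vector from left to right for each gene. Wild-type Snai1 replicate 1 is the lowest wild-type library for Serpinb2, Serpinb10 and Plaur and the highest for Serpinb6a, Serpinb8 and Serpinb9.

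Over the 9 libraries, the members' log2 CPM had Pearson r from 0.583 (Serpinb9 with Plaur) to 0.989 (Serpinb2 with Serpinb10), a description of points that share groups and libraries. Among the tested genes that averaged 1 CPM or more (11381 in this comparison), the pattern most like Serpinb2 was that of Fpr1, the formyl peptide receptor of phagocytes (r = 0.996), followed by Gpr34 and Ccr1. The nearest to Serpinb10 were Epb41l1 (r = 0.996), Mras and Prss23, and to Plaur Clic4 (r = 0.998), Slc25a25 and Rnf19b. Serpinb6a was nearest to Ctsb, the lysosomal protease cathepsin B (r = 0.997), then Cd2ap and Gch1. For Serpinb9 they were Ndfip2 (r = 0.996), Aqp9 and Cd34, and for Serpinb8 Dcaf10 (r = 0.984), Cd200r3 and Cd300a. Serpinb1a was nearest to Yme1l1, Gpbp1 and Dr1, and Plau to Ndufa5, Amd1 and Wdr77.

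The members' 6 serpin genes fall in a pair of gene clusters. On chromosome 1, 12 clade B genes lie between 106861175 and 107608978 (GRCm38), with no counts for 6 of them. The 4 that were tested, Serpinb7, Serpinb2, Serpinb10 and Serpinb8, are neighbours at one end. Serpinb7, Serpinb2 and Serpinb10 passed the filter on low counts only through wild-type Snai1 libraries, so no count of calls is read from this cluster. On chromosome 13, 16 clade B genes lie between 32842092 and 34002794, with no counts for 7. The 5 tested there, Serpinb1a, Serpinb1c, Serpinb6b, Serpinb9 and Serpinb6a, stand at both ends of the cluster. Serpinb1c likewise passed the filter only through wild-type Snai1 libraries. Most alternatives ended the call of Serpinb6b in wild-type Snai1 over empty vector, but none ended it in mutant over wild-type Snai1. For the former comparison, that leaves the values of Serpinb1a, Serpinb9 and Serpinb6a given above.

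The other 3 tested clade B serpins are not members. The p-values of Serpinb7 and Serpinb1c are no independent support, since only their wild-type libraries brought them past the filter. Serpinb7, a serpin known from skin and kidney, was at 0.153, 0.0998 and 0.0511 CPM in mutant Snai1 libraries, 4.23, 1.47 and 1.55 CPM in wild-type Snai1 libraries and 0.106, 0.0482 and 0 CPM in empty vector libraries. Its wild-type libraries lay above the rest, and its ratio of wild-type Snai1 to empty vector was 46.9 (counting interval 15.7 to 230, adjusted p = 2.02e-04). Without empty vector replicate 1 its fitted log2 fold change was 6.25, against 5.39 with it. Without wild-type replicate 1 that of mutant over wild-type Snai1 was -3.82, against -4.49. Serpinb1c gave a ratio of 18.5 (counting interval 6.95 to 69.8, adjusted p = 4.15e-04), with a fitted log2 fold change of 5.33 without empty vector replicate 1 and 4.09 with it. Serpinb6b gave 0.46 (SE 0.17, adjusted p = 0.0472) for wild-type Snai1 over empty vector with overlapping groups, a call lost under 11 of 15 alternatives. Adjusted p for Serpinb6b ranged from 0.00953 to 0.153 over them. Its mutant over wild-type Snai1 value was -0.62 (SE 0.17, edgeR adjusted p = 0.0132), without overlap of these groups. That call was lost under 0 of 15 alternatives, with adjusted p up to 0.0493.

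Some other genes within 500 kb of the clusters were called too, where 25.2% of all tested genes were called higher and 24.3% lower. These neighbours are too few to show whether their shares differ from those. Beside the chromosome 1 cluster, 4 were tested: Bcl2, an inhibitor of cell death, was called higher (0.49, SE 0.09), the phosphatase gene Phlpp1 lower (-0.29, SE 0.08), and Kdsr and Vps4b were not called. Beside the chromosome 13 cluster, 3 of 8 were called higher, the quinone reductase gene Nqo2 (0.93, SE 0.17), the kinase gene Ripk1 (0.58, SE 0.07) and the tubulin gene Tubb2a (2.09, SE 0.23), and 1 lower, Tubb2b (-0.57, SE 0.16). These are log2 fold changes of wild-type Snai1 over empty vector, and Nqo2 and Ripk1 overlap Serpinb6a. Reads of Tubb2a and Tubb2b, near-identical copies, are uncertain.

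**Figure D4:**
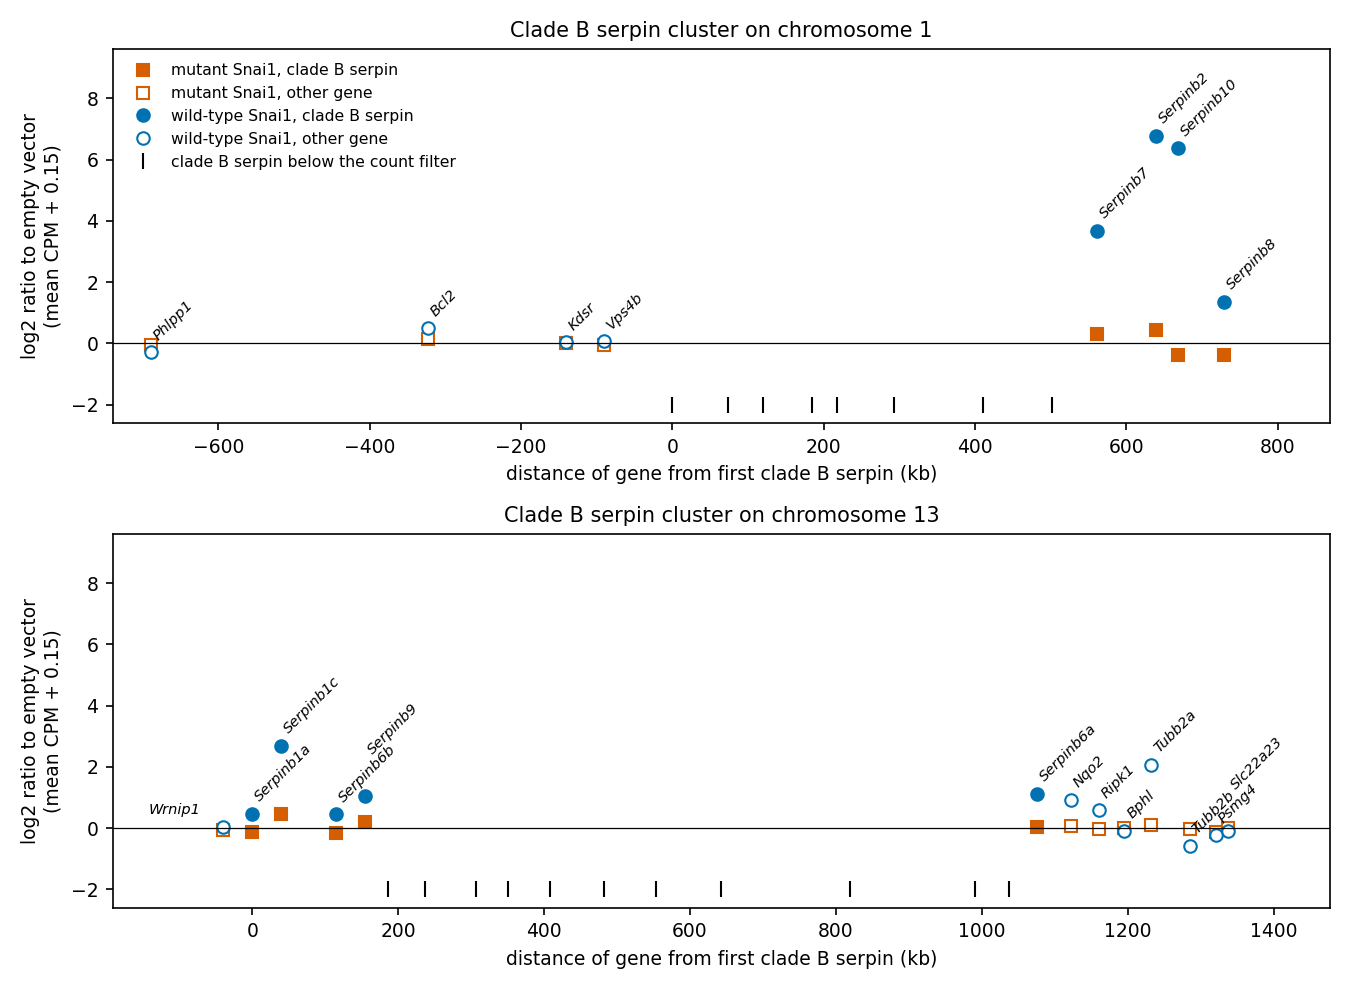
Log2 ratio of mean CPM to that of empty vector, after adding 0.15 CPM to both (vertical axis), for tested genes in and within 500 kb of the clade B serpin clusters by distance from the first clade B serpin in kb (horizontal axis), in mutant Snai1 and wild-type Snai1. Ticks, set at a fixed height with no value, mark clade B serpins below the filter on low counts, and the 4 tested serpins of chromosome 1 lie together at the right end.

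The partners of plasminogen activation were taken as 25 genes, of which 12 were tested. With wild-type Snai1 over empty vector, 8 were called higher and 1 lower, against 25.2% and 24.3% of all tested genes. The median log2 fold change was 0.50, against 0.00 over all tested genes. With mutant over wild-type Snai1, 0 were called higher and 7 lower, against 23.4% and 24.5%. The median there was -0.58, against 0.01 over all tested genes. Genes such as Hgf entered the tested list only through wild-type Snai1 libraries, so these counts and medians are a description. With mutant Snai1 over empty vector, 0 were called, with a median of -0.05 for the list and -0.01 for all tested genes.

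Among cell surface partners, Anxa2, an annexin that binds plasminogen and tissue-type activator, was at 24.7 ± 3.83 CPM in mutant Snai1, 260 ± 41.9 CPM in wild-type Snai1 and 31.1 ± 2.97 CPM in empty vector libraries. Wild-type Snai1 over empty vector gave 3.06 (SE 0.15, adjusted p = 2.42e-07). Its partner S100a10 gave 0.23 (SE 0.07, adjusted p = 0.0135), a call lost without empty vector replicate 2 or 3, with adjusted p up to 0.0627. The plasminogen receptor gene Plgrkt gave 0.41 (SE 0.06, adjusted p = 4.10e-04).

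The endocytic receptors Lrp1, which clears protease-serpin complexes, and Igf2r, which binds Plaur and plasminogen, were both called higher. Lrp1 was at 2.06 ± 0.583, 17.4 ± 5.96 and 2.72 ± 0.672 CPM in mutant Snai1, wild-type Snai1 and empty vector libraries (wild-type over empty vector 2.68, SE 0.29, adjusted p = 4.17e-05). Igf2r was at 18.3 ± 4.35, 68.0 ± 2.57 and 14.8 ± 2.44 CPM in the same groups (2.20, SE 0.17, adjusted p = 4.78e-06). The integrins moved apart: Itgb1 gave 0.59 (SE 0.06, adjusted p = 3.65e-05), whereas Itgam, a partner of the urokinase receptor on myeloid cells, gave -0.53 (SE 0.15, adjusted p = 0.0173). The call of Itgam was lost when wild-type replicate 1, wild-type replicate 2 or empty vector replicate 1 was left out (adjusted p up to 0.0611).

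Hgf, a growth factor related in structure to plasminogen, had a ratio of wild-type Snai1 to empty vector of 28.9 (counting interval 7.66 to 244, adjusted p = 5.61e-04). Its fitted log2 fold change was 7.32 without empty vector replicate 3, against 4.62, and that of mutant over wild-type Snai1 was -4.97 without mutant replicate 2, against -4.13. Hgf reached the filter only through wild-type Snai1 libraries. Eno1, Vldlr and Serpini1 were not called in any of the 3 comparisons.

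Possible target proteases of serpins were taken as a list of 17, of which 9 were tested. The list is not limited to proteases that a member, or any clade B serpin, is known to inhibit. With wild-type Snai1 over empty vector 4 were called higher and 1 lower, against 25.2% and 24.3% of all tested genes. With mutant over wild-type Snai1 1 was called higher and 4 lower, against 23.4% and 24.5%, and with mutant Snai1 over empty vector 0. Ctsk, among the 4, passed the filter only through wild-type Snai1 libraries, so these counts are a description. Furin, the convertase that human Serpinb8 inhibits, was at 195, 223 and 213 CPM in mutant Snai1 libraries, 495, 978 and 1049 CPM in wild-type Snai1 libraries and 199, 192 and 188 CPM in empty vector libraries. All wild-type libraries were above the others, and replicate 1 was lowest, the reverse of its place for Serpinb8. Its log2 fold change was 2.12 (SE 0.24, adjusted p = 1.53e-04).

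The lysosomal cathepsins Ctss, Ctsb and Ctsk gave 2.57 (SE 0.21, adjusted p = 6.65e-06), 1.67 (SE 0.21, adjusted p = 2.31e-04) and 3.93 (SE 0.64, adjusted p = 5.83e-04). For Ctsk, mutant over wild-type Snai1 was -4.73 without mutant replicate 2, against -3.79. Prss57, a granule protease of neutrophils, fell to 0.314 ± 0.0247 CPM with wild-type Snai1, against 7.82 ± 0.478 CPM in empty vector libraries (-4.61, SE 0.25, adjusted p = 3.25e-07). With mutant Snai1 it was at 8.37 ± 1.89 CPM. Prss57 overlaps Palm, so a part of its reads is uncertain.

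The granule proteases that Serpinb1a, Serpinb6a and Serpinb9 are known for were less uniform. Elane, neutrophil elastase, had 0 counts in each mutant Snai1 library, 4, 44 and 75 counts in wild-type Snai1 libraries and 0 counts in each empty vector library, and was not tested because of the filter. Ctsg, cathepsin G, had a total of 0, 6 and 0 counts in the same groups. Gzmb, granzyme B, had 735, 690 and 1112 counts in mutant Snai1 libraries, 56, 594 and 1131 counts in wild-type Snai1 libraries and 864, 860 and 642 counts in empty vector libraries. The Gzmb groups overlapped, with wild-type replicate 1 far below all others, and neither Gzmb nor Prtn3 was called in any comparison.

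Serpins of other clades were 13 listed and 3 tested. Serpina3f (2.32, SE 0.44, adjusted p = 0.00176), Serpinf1 (0.59, SE 0.15, adjusted p = 0.0110) and Serpina3g (0.33, SE 0.12, adjusted p = 0.0404) were called higher with wild-type Snai1 over empty vector and lower with mutant over wild-type Snai1. Of all tested genes, 25.2% were called higher in the former comparison and 24.5% lower in the latter. The call of Serpina3g was lost under 10 of 15 alternatives, with adjusted p from 1.70e-04 to 0.143. Its mutant over wild-type call was lost under 3 of them, and that of Serpinf1 under 5.

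Marker lists of other blood cells also differed between the groups, and not all in one direction. Their calls are for wild-type Snai1 over empty vector, where 25.2% of all tested genes were called higher and 24.3% lower. The summed level of 8 monocyte and macrophage markers was 23.8 to 25.7 CPM in mutant Snai1, 205 to 338 CPM in wild-type Snai1 and 24.6 to 26.6 CPM in empty vector libraries, and Ly86 was at 0 in both Snai1 groups. Of the 7 tested, 5 were called higher and 2 lower with wild-type Snai1 over empty vector. That of 9 neutrophil markers was 1.65 to 2.75, 58.2 to 134.5 and 1.65 to 2.84 CPM in the same groups, with Ly6g at 0 in all. The wild-type sum was mostly Lcn2, at 53.5, 84.7 and 111 CPM in replicates 1, 2 and 3. Of the neutrophil markers, 2 of 4 tested were called, both higher. Lcn2 passed the filter only through wild-type Snai1 libraries, so this count is a description. The sum of 4 endothelial markers, nearly all Vwf, was 0.818 to 1.07, 13.3 to 49.9 and 0.798 to 1.20 CPM. Erythroid markers went the other way, at 33.9 to 38.5, 13.4 to 16.6 and 30.4 to 32.7 CPM, with Hba-a1 at 0 and 4 of 4 tested called lower with wild-type Snai1 over empty vector.

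The sums of 8 mast cell markers were 3079 to 3233 CPM in mutant Snai1, 3494 to 3797 CPM in wild-type Snai1 and 2746 to 3116 CPM in empty vector libraries, with Mcpt8 at 0 in all. With wild-type Snai1 over empty vector, 1 of 3 tested was called higher and 1 lower. Shares of all tested genes in that comparison were 25.2% higher and 24.3% lower, here and for the lists that follow. Those of 5 megakaryocyte markers were 537 to 634, 734 to 1048 and 606 to 668 CPM, with 2 of 4 called higher and 1 lower. Those of 7 lymphoid markers were 2.40 to 3.73, 0.598 to 0.930 and 3.08 to 3.86 CPM, with Cd3e and Ncr1 at 0 and 2 of 2 tested called lower. The 6 fibroblast markers summed to 455 to 476, 320 to 427 and 487 to 527 CPM, with Col3a1, Dcn and Lum at 0 in all. In each group only 1 of the 6 had over 3 counts in every library, so these sums do not describe the list as a whole. The 1 tested was called lower. The part of these cell types in the members' levels was not tested.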

How the data were processed

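RNA sequencing of 3 groups of 3 HPC7 libraries was analysed from the deposited table of raw counts, which the authors made with featureCounts on mm10, per the submitters' processing notes, which also name edgeR 3.15.0 and limma 3.29.12. Libraries came from the TruSeq stranded mRNA kit, per the labels' protocols. Aligner, annotation and strand setting are not given in the sources used here. Of 27179 Entrez identifiers, 25275 were given symbols from RefSeq GRCm38.p6 and 18 from GENCODE M21, and 1886 had none.

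Counts were filtered with filterByExpr (minimum count 10), scaled with TMM and fitted with edgeR 4.0.16 in R 4.3.3 (quasi-likelihood, robust, group as the only term). The SE is the fold change divided by the square root of F. Where a group had no counts, the bound was taken against 3 counts in each of its libraries. Where it had 1 to 3 counts in all, or at most 3 in every library, the ratio of summed counts has an exact 95% binomial interval. These bounds and intervals cover counting error only. Approximate intervals are the fold change ± 1.96 SE.

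The members, gene lists and tests were chosen with earlier results of these data known. Every member was named in every comparison. From each other list the rule named up to 4 tested genes with the smallest p, and Plgrkt, S100a10, Itgam, Hgf, Ctsk, Elane, Ctsg, Gzmb, Prtn3 and the neighbours of the clusters were named after their values were seen. The fit was tested on simulated data with known changes. Alternatives were RLE scaling, no filter, DESeq2 1.42.0, limma 3.58.1 voom, only the groups compared, a replicate block, and each library left out. Shared 50-base runs were counted against GENCODE M21 transcripts. One gene of the lists is not reported here.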

Additional observations from a re-analysis of the deposited data

How the results depend on the processing

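Plaur, Serpinb8, Serpinb1a, Serpinb6a and Serpinb9 kept their direction and their side of the threshold under all 15 alternatives in wild-type Snai1 over empty vector and in mutant over wild-type Snai1, and none of them was called in mutant Snai1 over empty vector. So did Serpinb2, Serpinb10 and Plau, whose calls follow in part from the filter on low counts, and Plat had no test in the main analysis. The highest adjusted p of a called member was 0.0479, for Serpinb9 in mutant over wild-type Snai1 without mutant replicate 2. The number of all genes called ranged from 5106 to 7410 around 6172 in wild-type Snai1 over empty vector, and from 4978 to 7308 around 5977 in mutant over wild-type Snai1, with a library left out. In mutant Snai1 over empty vector it was 1, and it was 10 with DESeq2, 2 with limma voom, 30 with only the groups compared, and 1 to 62 with a library left out (62 when wild-type replicate 1 was left out and 2 when wild-type replicate 2 was). The cause was not tested. With the replicate number as a block, the counts were 5886, 1 and 5732 in wild-type Snai1 over empty vector, mutant Snai1 over empty vector and mutant over wild-type Snai1, and no member's call changed. Nothing in the labels says that the numbers pair libraries. After removal of group means, same-numbered libraries had r from -0.0873 to 0.21, with 2 of 9 pairs above 0.1. Pairs of unlike number had r from -0.165 to 0.117, with 1 of 18 above 0.1. The most correlated library bore the same number for 4 of 9 libraries. Such weak values cannot decide whether the numbers pair libraries. Depth limits Plat, Plau and the levels of Serpinb2 and Serpinb10 outside wild-type Snai1. Their fitted fold changes depend on the prior count, which is why bounds and count ratios are given.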

Other observations

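One identifier without a symbol held 701384 counts, or 3.62% of the library, in empty vector replicate 1, and 0.101% to 0.280% in the other 8 libraries. No member, and no gene named above, has that identifier.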
